A study of Homo sapiens with 8 samples.

Results

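H3K27ac peaks were examined at 9 genes of the DNA damage response and repair, *ATM*, *ATR*, *CHEK1*, *MRE11*, *H2AX*, *BRCA1*, *BRCA2*, *PALB2* and *FANCD2*. They were taken by name from the 19970 protein-coding genes annotated on the autosomes and chromosome X, and each was given a window of the gene plus 10 kb on either side. The windows held 25 peaks of MP2_HDAC1_OE and 24 peaks of MP2_NTC. Peaks of the lines that shared at least 1 bp were merged, which left 17 regions at the 9 genes of 18678 regions in all.

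The cells were of MIA PaCa-2, an established human line from a pancreatic carcinoma. MP2_HDAC1_OE stably carries the CRISPR activation vectors lentiSAMv2 and lentiMPHv2 with a guide RNA that targets *HDAC1*, and MP2_NTC carries the same vectors with a non-targeting guide, so the activation machinery is common to both lines. Each line gave 2 H3K27ac ChIP-seq samples and 2 control samples without antibody, and the peaks of the 2 H3K27ac samples of a line were deposited as 1 list. There is therefore no replicate value for any peak, no test was possible, and every comparison below is one of 1 list against 1 list. Sequencing depth cannot be read from the lists. A line made by transduction and selection is a single model, so that a difference between the lists cannot be told apart from a difference between the established lines. Of 5 epithelial marker genes, 4 had peaks in both lists, and *EPCAM* had none in either. Over all protein-coding genes, 53.8% had a peak of MP2_HDAC1_OE and 52.8% one of MP2_NTC in the gene and 10 kb either side. *KRT8* and *KRT18* had the same highest ranks (61.1 in MP2_HDAC1_OE and 76.2 in MP2_NTC), so they may share a peak.

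Cells sense a DNA double-strand break through the MRE11-RAD50-NBN complex, which recruits the kinase ATM, while ATR responds to single-stranded DNA at stalled forks and activates CHEK1. Both kinases phosphorylate the histone variant H2AX around the lesion, and repair by homologous recombination then uses BRCA1, PALB2 and BRCA2, with FANCD2 acting at crosslinks between the strands. Acetylation of histone H3 at lysine 27 marks active promoters and enhancers, and HDAC1 is an enzyme that removes acetyl groups from histones.

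At the targeted gene itself, *HDAC1*, a region in both lists had a signal of 91.6 in MP2_HDAC1_OE and 44.1 in MP2_NTC. The signal of a peak has no stated scale between the lists, so each peak was given a rank, the percent of peaks of its own list with a lower signal. The *HDAC1* region ranked at 93.9 in MP2_HDAC1_OE and at 40.4 in MP2_NTC. The *HDAC1* window also held 2 regions unique to MP2_NTC, with signals of 46.7 and 47.9 and ranks of 45.2 and 47.4, and 1 unique to MP2_HDAC1_OE, with a signal of 35.8 and a rank of 28.6, so its regions did not all differ in one direction. The file medians were 46.5 and 49.3, and signals ran from 11.01 to 185 in MP2_HDAC1_OE and from 11.7 to 220 in MP2_NTC.

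Promoter sequences (RefSeq, GRCh38.p14, 5′ to 3′ on the strand of the gene) are given for *ATM*, *MRE11*, *PALB2* and *FANCD2*. Between strongest peaks, the *ATM* start region differed more in rank than any other except the one at the far *BRCA1* start. The *PALB2* start region differed least on that measure. The *MRE11* region was in 1 list, and *FANCD2* had no peak and was added after its values were seen. Each sequence runs from 250 bases before an annotated start to 50 bases after it, in lower case, with matches to the searched motifs in capitals.
*ATM* first start, chr11:108222817-108223116, plus strand: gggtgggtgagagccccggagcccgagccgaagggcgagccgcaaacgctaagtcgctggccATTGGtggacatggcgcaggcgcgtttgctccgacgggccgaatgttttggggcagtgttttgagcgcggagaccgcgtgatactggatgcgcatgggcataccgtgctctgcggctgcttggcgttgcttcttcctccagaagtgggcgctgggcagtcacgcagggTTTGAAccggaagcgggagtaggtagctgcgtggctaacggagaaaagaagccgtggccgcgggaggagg
*ATM* second start, chr11:108223075-108223374, plus strand: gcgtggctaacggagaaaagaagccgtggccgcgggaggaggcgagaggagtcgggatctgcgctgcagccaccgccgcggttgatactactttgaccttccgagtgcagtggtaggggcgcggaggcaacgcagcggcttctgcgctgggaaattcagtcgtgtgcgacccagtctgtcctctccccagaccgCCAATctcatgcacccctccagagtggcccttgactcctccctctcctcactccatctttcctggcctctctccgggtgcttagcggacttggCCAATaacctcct
*MRE11*, chr11:94493795-94494094, minus strand: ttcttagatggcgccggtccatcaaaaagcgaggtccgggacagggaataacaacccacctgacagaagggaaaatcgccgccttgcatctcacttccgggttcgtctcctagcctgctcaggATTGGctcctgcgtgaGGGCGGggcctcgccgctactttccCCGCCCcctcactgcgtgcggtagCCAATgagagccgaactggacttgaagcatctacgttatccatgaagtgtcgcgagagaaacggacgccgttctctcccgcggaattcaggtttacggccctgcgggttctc
*PALB2*, chr16:23641261-23641560, minus strand: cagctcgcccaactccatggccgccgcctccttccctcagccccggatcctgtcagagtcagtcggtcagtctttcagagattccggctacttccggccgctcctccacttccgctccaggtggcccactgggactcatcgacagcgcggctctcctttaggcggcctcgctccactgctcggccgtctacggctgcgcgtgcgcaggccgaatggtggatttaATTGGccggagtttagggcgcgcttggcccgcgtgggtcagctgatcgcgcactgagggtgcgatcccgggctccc
*FANCD2*, chr3:10026187-10026486, plus strand: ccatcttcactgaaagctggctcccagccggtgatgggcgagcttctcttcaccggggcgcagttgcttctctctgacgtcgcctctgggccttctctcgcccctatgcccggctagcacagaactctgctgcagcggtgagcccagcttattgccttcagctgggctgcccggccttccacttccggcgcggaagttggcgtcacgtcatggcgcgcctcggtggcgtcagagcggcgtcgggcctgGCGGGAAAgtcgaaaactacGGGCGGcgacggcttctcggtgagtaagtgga

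The motifs, searched on both strands, were CCAAT (the CCAAT box), GGGCGG (the GC box), TTTGAA (the cell cycle homology region), TTTGGCGC and TTTCCCGC (E2F sites), GCATGCGC (the NRF1 core) and TATAAA (the TATA box). Counts below are of genes with a match in any of their promoters, while percentages are of single promoters of all gene types, so the values are not strictly alike. CCAAT was in promoters of 6 of the 9 genes, *ATM*, *CHEK1*, *MRE11*, *H2AX*, *BRCA1* and *PALB2*, and in 34.6% of 35116 promoters. GGGCGG was in those of 5 genes, *ATR*, *CHEK1*, *MRE11*, *BRCA1* and *FANCD2*, and in 45.0% of all. TTTGAA was found at *ATM* and *H2AX* (15.2% of all), TTTCCCGC at *FANCD2* (1.63%) and TATAAA at *H2AX* (11.5%). TTTGGCGC (0.652% of all) and GCATGCGC (3.05%) were in none of these windows, and *BRCA2* held no match to any of the 7 motifs. The 13 promoters of the 9 genes had a median GC content of 62.3%, the same as the 22198 protein-coding promoters, and a median CpG observed-to-expected ratio of 0.832 against 0.737. *FANCD2*, the gene with no peak, thus had a promoter with a CpG ratio of 0.925. The regions in the lists covered these sequences of 300 bases to different extents. The *ATM* region began 130 bp after the end of its first printed sequence and covered 129 bases of the second. The *MRE11* region covered 265 bases and the *PALB2* region 196 bases.

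A peak of MP2_HDAC1_OE was present at 8 of the 9 genes, against 53.8% of all protein-coding genes, and a peak of MP2_NTC at 7, against 52.8%. A region in both lists was present at 7 genes (45.7% of all genes). A region unique to MP2_HDAC1_OE was present at 3 genes, *MRE11*, *BRCA1* and *PALB2* (21.6% of all), and a region unique to MP2_NTC at *H2AX* (19.1% of all). *MRE11* had a peak in MP2_HDAC1_OE and none in MP2_NTC, a pattern of 5.96% of all genes, and *FANCD2* had no peak, as did 41.3% of all genes. The 9 genes are long, with a median of 85.2 kb against 24.2 kb for all protein-coding genes, and a longer gene has a longer window. In windows of 2 kb before to 1 kb after each listed start, 7 of the 9 genes had peaks in both lists, against 39.4% of the 15812 genes with a listed start. A gene with more starts has more such windows: *CHEK1* has 3 starts, and *ATM* and *BRCA1* have 2 each. The plot of peaks around the starts shows that *FANCD2* is empty there and that *MRE11* has a single bar.

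**Figure D1:**
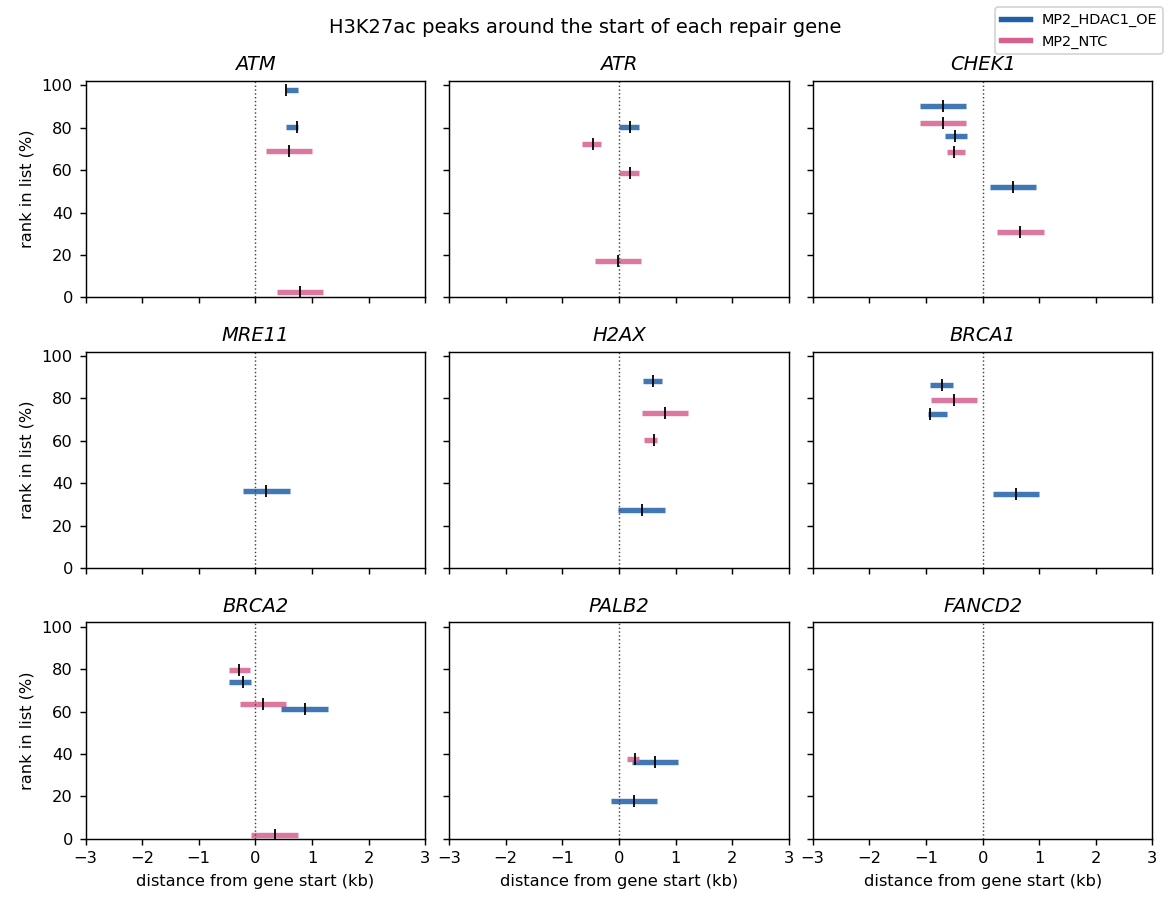
H3K27ac peaks within 3 kb of the start of each gene, in the direction of transcription. Each bar is a peak drawn to scale along the horizontal axis (distance from the gene start, kb) at its rank in its list (vertical axis, percent of peaks with a lower signal), blue for MP2_HDAC1_OE and pink for MP2_NTC; ticks are summits. The *BRCA1* panel uses the start shared with *NBR2*. *ATM* shows blue bars up to 97.9 above a pink bar at 68.8, *MRE11* a blue bar alone at 36.5, and *FANCD2* no bar.

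*MRE11* encodes the nuclease of the break-sensing complex and lies at chr11:94415570-94512412 on the minus strand. It had 1 region, chr11:94493240-94494059, a peak of MP2_HDAC1_OE of 820 bp with a signal of 39.9, a rank of 36.5 and a score of 668. Its summit was 194 bp from an annotated start of *MRE11*, which is inside the gene record. The start of the neighbouring gene *ANKRD49* is also inside the region, so the mark cannot be assigned to either gene. The nearest MP2_NTC summit was 365 kb from the start, with a rank of 75.6. The MP2_HDAC1_OE peak was below the middle of its own list, and a list holds only peaks that passed the selection between replicates, so absence from MP2_NTC does not show absence of acetylation.

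*ATM*, the kinase activated by double-strand breaks, lies at chr11:108223067-108369102 on the plus strand and shares its promoter with *NPAT*. It had 1 region, chr11:108223246-108224269, in the first part of the gene and within 1 kb of the end of *NPAT*. MP2_HDAC1_OE had 2 peaks there with the same interval of 215 bp and different summits, with signals of 110 and 68.4 and ranks of 97.9 and 80.4. MP2_NTC had 2 peaks of 820 bp, with signals of 62.1 and 14.2 and ranks of 68.8 and 2.50. The strongest peak thus ranked 29.1 points higher in MP2_HDAC1_OE, and 88.3% of all shared regions had a lower difference. The summits of the strongest peaks were 46 bp apart.

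*ATR*, the kinase of the replication stress response, lies at chr3:142449235-142578733 on the minus strand and had 2 shared regions. In the region at its start, chr3:142578340-142579393, MP2_HDAC1_OE had 1 peak with a signal of 68.3 and a rank of 80.3. MP2_NTC had 3 peaks there, with signals of 65.0, 54.6 and 28.3 and ranks of 72.2, 58.8 and 17.1. The strongest peaks of the lists did not overlap, and the MP2_NTC peak with nearly the interval of the MP2_HDAC1_OE peak (339 bp in common, summits 4 bp apart) was the one ranked at 58.8. The difference in rank at the start was therefore 8.11 points between the strongest peaks and 21.6 points between the matching peaks. The other region, chr3:142447410-142448659, was at the far end of the gene, holds an end of *XRN1* and ranked at 93.1 in MP2_HDAC1_OE and 78.6 in MP2_NTC (signals of 89.3 and 71.7).

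*CHEK1*, the checkpoint kinase downstream of ATR, lies at chr11:125625136-125681124 on the plus strand. Its promoter was flanked by 2 shared regions. The first, chr11:125625115-125625947, is before the annotated starts, holds an end of the gene record and one of *LOC118567325*, and had signals of 83.3 and 76.4 and ranks of 90.4 in MP2_HDAC1_OE and 82.4 in MP2_NTC. Those peaks were both 820 bp wide and had 816 bp in common. The second, chr11:125626352-125627305, just inside the gene, had signals of 47.6 and 39.2 and ranks of 52.2 and 31.0, which is 21.2 points higher in MP2_HDAC1_OE. Both *CHEK1* regions thus ranked higher in MP2_HDAC1_OE, with the wider gap at the weaker region.

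*H2AX*, the histone variant phosphorylated at breaks, is the shortest of the 9 genes (1.59 kb, chr11:119093874-119095465, minus strand) and lies among other genes, so most of its window belongs to neighbours. The region at its start, chr11:119094239-119095475, held 2 peaks in each list. Their signals were 79.0 and 34.9 in MP2_HDAC1_OE and 65.8 and 55.6 in MP2_NTC. The strongest ranked at 88.0 in MP2_HDAC1_OE and 72.9 in MP2_NTC, a difference of 15.0 points, and the second at 27.3 and 60.3. These pairs did not match in width. The second MP2_NTC peak, of 225 bp, lay inside the strongest MP2_HDAC1_OE peak, with summits 10 bp apart. That match was 27.7 points higher in MP2_HDAC1_OE. The peaks of 820 bp went the other way, at 27.3 in MP2_HDAC1_OE and 72.9 in MP2_NTC. A region that holds ends of *DPAGT1* and *C2CD2L*, chr11:119101207-119102686, ranked at 84.2 and 82.4. The region unique to MP2_NTC, chr11:119102780-119104056, was 7.32 kb outside *H2AX*, with a signal of 43.0 and a rank of 38.3. The first peaks beyond the limit of the window were 11.7 kb from the gene in both lists, with ranks of 32.9 and 32.0.

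*BRCA1*, which directs breaks to homologous recombination, lies at chr17:43044295-43170327 on the minus strand and has annotated starts at 43125364 and 43170327. The start at 43125364 faces *NBR2*. There, the shared region chr17:43125454-43126324, which holds an end of *NBR2*, had signals of 76.5 in MP2_HDAC1_OE and 72.5 in MP2_NTC and ranks of 86.5 and 79.3. On the *BRCA1* side, 179 bp from that start, chr17:43124366-43125185 was unique to MP2_HDAC1_OE, with a signal of 39.3, a rank of 35.2 and a score of 549. At the far start, chr17:43169107-43170160 had signals of 69.6 and 46.6 and ranks of 81.5 and 45.0. That difference, 36.5 points, was the widest of the 13 shared regions, and 92.5% of all shared regions had a lower one. The region holds an end of *BRCA1P1*, a pseudogene that copies the promoter end of *BRCA1*, so reads could have been placed at either copy and its value is uncertain. The same may hold for the regions at the start at 43125364, including the one unique to MP2_HDAC1_OE, and was not tested. The last region, chr17:43170903-43171722 beside *NBR1*, had a signal of 43.2 in each list and ranks of 43.6 and 38.6.

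*BRCA2*, which acts in the strand exchange step of recombination, lies at chr13:32315077-32400268 on the plus strand, with *ZAR1L* facing it. Its 1 region, chr13:32315034-32316785, ranked at 74.0 in MP2_HDAC1_OE and 79.5 in MP2_NTC, with signals of 62.0 and 72.8. The strongest peaks were of nearly equal width, 386 and 385 bp, with 375 bp in common. The difference in rank, −5.47 points, was the most negative of the 13 shared regions, and 32.8% of all shared regions had a lower difference.

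*PALB2*, the partner that joins BRCA1 to BRCA2, lies at chr16:23603165-23641310 on the minus strand. The region at its start, chr16:23640262-23641456, had signals of 39.7 and 42.6 and ranks of 36.1 in MP2_HDAC1_OE and 37.5 in MP2_NTC, the lowest pair among the strongest start regions of the 7 genes with a shared region. The summits of these strongest peaks were 348 bp apart. A second MP2_HDAC1_OE peak in the region, ranked at 18.0, had its summit 27 bp from that of the MP2_NTC peak. Against that peak the difference was −19.5 points. The start of *DCTN5* is within 1 kb of the region. A second region, chr16:23595757-23596576, was unique to MP2_HDAC1_OE and was the strongest of the 4 unique regions, with a signal of 76.9, a rank of 86.8 and a score of 1000. It was 6.59 kb outside *PALB2* and holds an end of *NDUFAB1*, a mitochondrial protein gene.

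*FANCD2*, which is monoubiquitinated at crosslinks, lies at chr3:10026437-10101932 on the plus strand and had no peak in either list. The summit nearest to its start was 49.5 kb away in MP2_HDAC1_OE, with a rank of 2.26, and 38.8 kb away in MP2_NTC, with a rank of 7.85. Measured from the nearer end of the gene, the first peak outside the window was 40.0 kb away in MP2_HDAC1_OE (rank 66.8) and 13.5 kb away in MP2_NTC (rank 51.2). Absence from both lists shows only that no peak there passed the selection, since depth is unknown and a list has no values below its threshold.

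Over the 13 shared regions, 11 ranked higher in MP2_HDAC1_OE, against 54.7% of all 9477 shared regions. The exceptions were the start regions of *BRCA2* and *PALB2*. The median difference was 8.11 points (range −5.47 to 36.5), against a median of 1.51 over all shared regions (quartiles −10.4 and 15.6). Of the 13, 4 ranked at least 20 points higher in MP2_HDAC1_OE (19.7% of all shared regions), among them the regions described at *ATM*, *CHEK1* and *BRCA1*, and 0 ranked at least 20 points higher in MP2_NTC (14.7% of all). The median rank of the 13 regions was 84.2 in MP2_HDAC1_OE and 72.2 in MP2_NTC, against 74.6 and 71.8 for all shared regions.

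**Figure D2:**
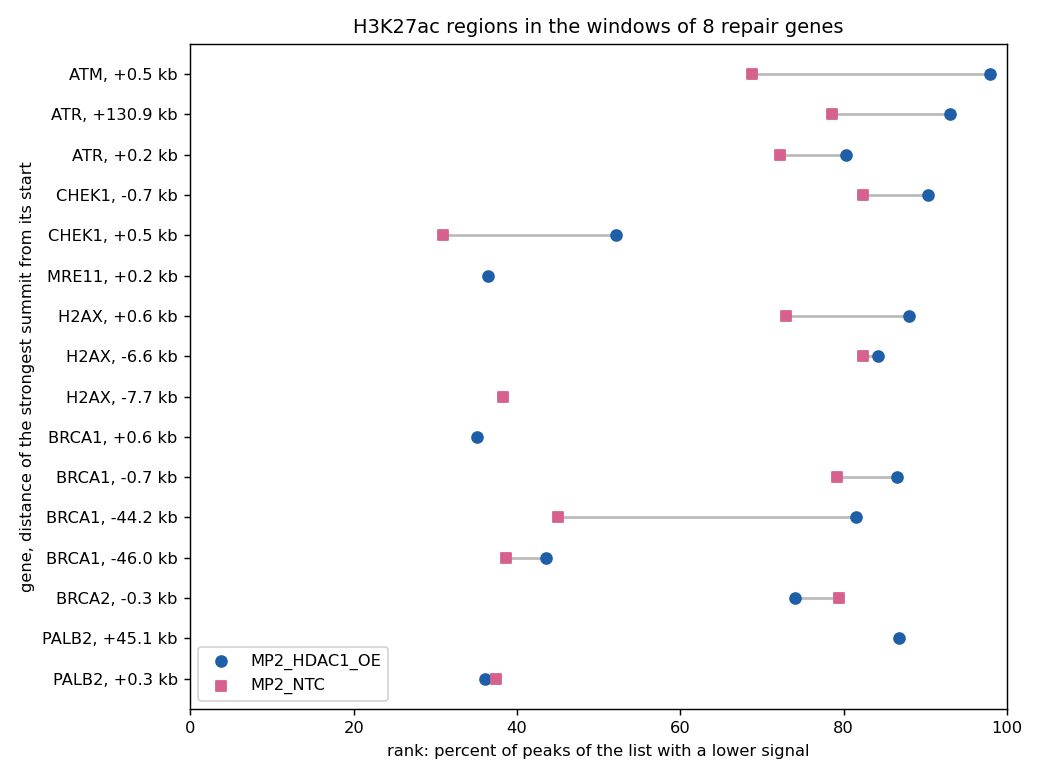
Ranks of 16 of the 17 regions in the windows of 8 genes (*FANCD2* has none, and 1 region in the *H2AX* window is not drawn), one line per region, named by gene and by the distance of its strongest summit from the gene start in the direction of transcription. The horizontal axis is the percent of peaks of the list with a lower signal; circles are MP2_HDAC1_OE, squares MP2_NTC, joined where the region is in both lists. The circle is to the right of the square in 10 of 12 joined pairs, and the widest gaps are at *BRCA1* (36.5 points) and *ATM* (29.1 points).

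The width of the peaks moved with these differences. In both lists 820 bp was by far the most common width (56.4% of peaks in MP2_HDAC1_OE and 61.7% in MP2_NTC), and narrower peaks had higher ranks, with medians of 72.3 and 75.5 against 36.1 and 37.0 for peaks of 820 bp. At 7 of the 13 regions, including those of *ATM* and *H2AX*, the strongest peak was narrower than 820 bp in MP2_HDAC1_OE and 820 bp in MP2_NTC. Such pairs made up 17.3% of all shared regions, with a median difference of 11.3 points, while pairs of 820 bp in both lists made up 31.2% (median 3.86) and narrower pairs 40.3% (median 0.270). The reverse arrangement, found at the *PALB2* start, made up 7.57% (median −9.13).

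Ranked only among peaks of the same kind (820 bp, or any other width), a choice made after the widths were seen, 6 of the 13 regions ranked higher in MP2_HDAC1_OE, against 52.3% of all shared regions, and the median difference of the 13 was −0.92 points. Here the peak with the highest rank of this kind stood for each region, which need not be its strongest. At *BRCA2* these were peaks of 820 bp with 89 bp in common and signals of 52.7 and 57.9, not the strongest pair. The median of −0.92 points is the value of that region. On that scale 3 regions were at least 20 points higher in MP2_HDAC1_OE and 3 at least 20 points higher in MP2_NTC. The *ATM* region was then 9.33 points higher in MP2_HDAC1_OE, the weaker *CHEK1* region 28.3 and the *BRCA1* region beside *BRCA1P1* 35.3, while the difference was −15.0 points at the *H2AX* start and −22.3 points in the *BRCA1* region at *NBR2*. At the *PALB2* start it turned from −1.42 to 33.5 points. The direction over the 9 genes as a group therefore depended on how peaks of different width were ranked, whereas the direction at *ATM*, at both *CHEK1* regions, at the *ATR* start, beside *BRCA1P1* and at *BRCA2* was the same under both. At *BRCA2*, however, each ranking used a different pair of peaks.

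**Figure D3:**
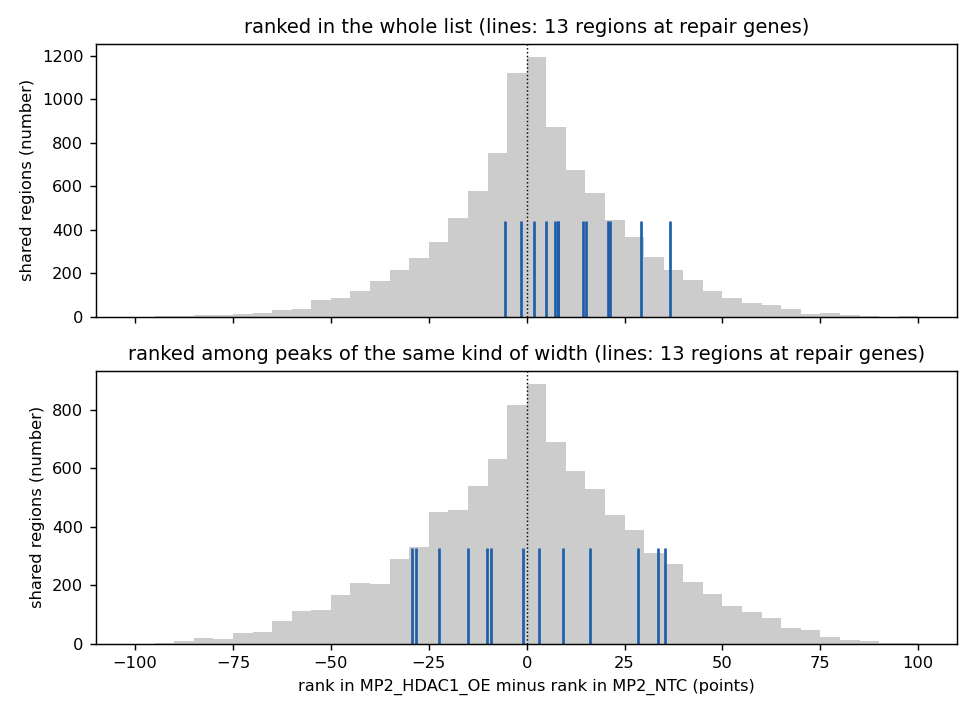
Rank in MP2_HDAC1_OE minus rank in MP2_NTC (horizontal axis, points) for all 9477 shared regions (grey bars, number per 5 points), with the 13 regions at the repair genes as blue lines of arbitrary height. In the upper panel, ranked in the whole list, 11 lines are above 0; in the lower panel, ranked among peaks of the same kind of width, 6 are.

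*ATM*, *CHEK1*, *MRE11* and *H2AX* all lie on the long arm of chromosome 11. Their 6 shared regions all ranked higher in MP2_HDAC1_OE in the whole lists, with a median difference of 17.9 points, against 6.37 over all shared regions of chromosome 11 and 1.37 over those of the other chromosomes. At the 5 other genes, 5 of 7 shared regions ranked higher, with a median of 7.27. Among peaks of the same kind of width, 3 of the 6 chromosome 11 regions were higher in MP2_HDAC1_OE.

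Pooled over these 4 genes, nearby regions were more often in MP2_HDAC1_OE alone than regions near the other 5. Within 5 Mb of them, 36.6% of 145 regions were unique to MP2_HDAC1_OE (95% Wilson interval 29.2 to 44.6) and 18.6% to MP2_NTC (13.1 to 25.7). Within 5 Mb of the other 5 genes, 23.1% of 454 regions were unique to MP2_HDAC1_OE (19.5 to 27.2) and 23.3% to MP2_NTC. Over all chromosomes the shares were 28.6% and 20.7%. The whole of chromosome 11 had nearly the share of the 4 genes, 35.3% of 795 regions (32.1 to 38.7), so the surroundings of the 4 genes were like the rest of their chromosome. By gene, the share unique to MP2_HDAC1_OE was 43.2% of 44 regions at *CHEK1*, 40.7% of 54 at *H2AX*, 33.3% of 39 at *ATM* and 26.7% of 15 at *MRE11*, and it ranged from 15.4% at *ATR* to 25.3% at *BRCA1* elsewhere. The order of single genes depended on the distance: within 10 Mb *ATR* was at 30.5% and *FANCD2* at 31.9%, above *ATM* (29.0%) and *MRE11* (27.3%), and within 2 Mb *FANCD2* was at 34.6% and *PALB2* at 30.0%, above *MRE11* (21.4%). The pooled share at the 4 genes was 34.7% within 2 Mb and 36.4% within 10 Mb, against 23.5% and 27.1% at the other 5. The intervals cover counting error only.

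**Figure D4:**
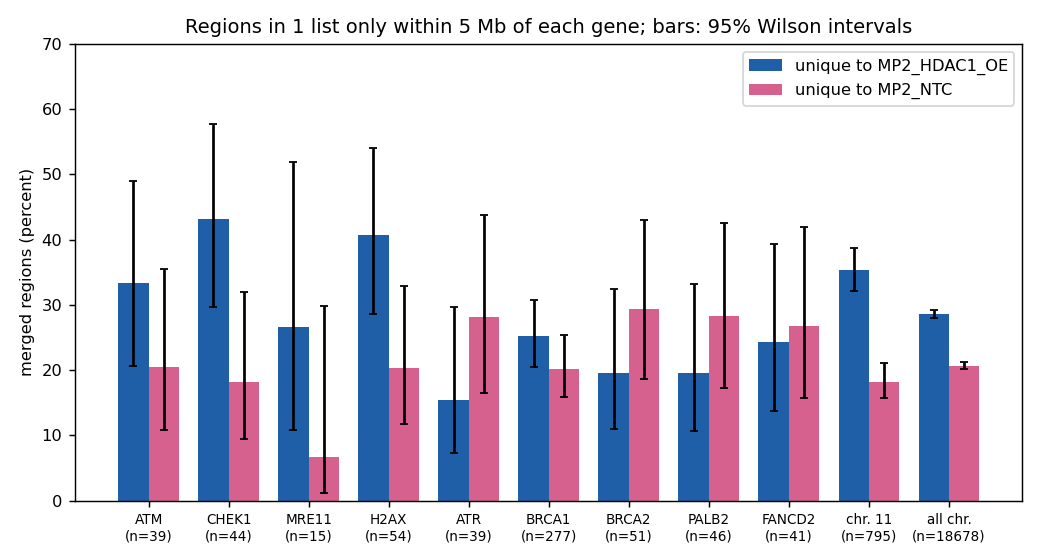
Percent of merged regions within 5 Mb of each gene that were in 1 list alone (vertical axis), blue for MP2_HDAC1_OE and pink for MP2_NTC, with the number of regions under each gene, the 4 chromosome 11 genes first and all of chromosome 11 and all chromosomes last. Error bars are 95% Wilson intervals; the blue bar exceeds the pink one at the 4 chromosome 11 genes and at *BRCA1*, and the intervals of single genes are wide.

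Around these 9 genes, 87 other repair genes were grouped by function. A shared region was present at 65 of them (74.7%), 30 (34.5%) had a region unique to MP2_HDAC1_OE and 25 (28.7%) one unique to MP2_NTC, each above the share of all protein-coding genes given above. Gene length was not taken into account in these shares, and a longer gene has a longer window. At the shared regions, 39 of 65 genes ranked higher in MP2_HDAC1_OE, with a median difference of 1.07 points, close to the 0.958 of the 9136 protein-coding genes with a shared region, 54.6% of which ranked higher. The corresponding median over the 7 genes with a shared region among the 9 was 7.27. A rank at least 20 points higher was found at 13 of the 65 genes in MP2_HDAC1_OE, against 15.5% of the 9136 genes, and at 6 in MP2_NTC, against 11.6%.

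Of the 87 genes, 7 had MP2_HDAC1_OE regions alone, a pattern of 5.96% of all protein-coding genes, and 9 had MP2_NTC regions alone. The share of all protein-coding genes with MP2_NTC regions alone is not given here, so counts of such genes have no background beside them. The 13 Fanconi pathway genes, the relatives of *FANCD2*, had the most genes with MP2_HDAC1_OE regions alone, 4, and 8 with a shared region. Among them *FANCB*, a subunit of the Fanconi core complex, had a region ranked at 92.6 that is also within 1 kb of *MOSPD2*. *FANCI*, the partner of FANCD2 in its complex, had one ranked at 70.1. The 17 homologous recombination genes had 12 with a shared region and 3 with MP2_NTC regions alone. One of them was *BARD1*, the partner of BRCA1 (rank 81.8), where an end of *SNHG31* is also within 1 kb. Of the 12 checkpoint genes, 10 had a shared region, 7 of them ranked higher in MP2_HDAC1_OE. Of the 9 damage sensing genes 7 had a shared region, and *TP53BP1* had no peak in either list, like *BLM* in the recombination group.

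The other 4 groups had shared regions at 8 of 9 end joining genes, 9 of 11 nucleotide excision repair genes, 4 of 6 mismatch repair genes and 7 of 10 base excision repair genes. *DDB1*, a subunit of the complex that recognises ultraviolet lesions, had MP2_HDAC1_OE regions alone (rank 87.5). *ERCC5*, an excision nuclease, and *LIG4*, the ligase of end joining, had MP2_NTC regions alone (ranks of 76.2 and 67.5). An end of *TKFC* is also within 1 kb at *DDB1*, and one of *ABHD13* at *LIG4*. The median difference in rank was positive for checkpoint signalling (5.06), homologous recombination (7.77), the Fanconi pathway (0.170) and nucleotide excision repair (3.89). It was negative for damage sensing (−4.67), end joining (−3.36), mismatch repair (−4.89) and base excision repair (−3.37). Peak width was not separated in these values.

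**Figure D5:**
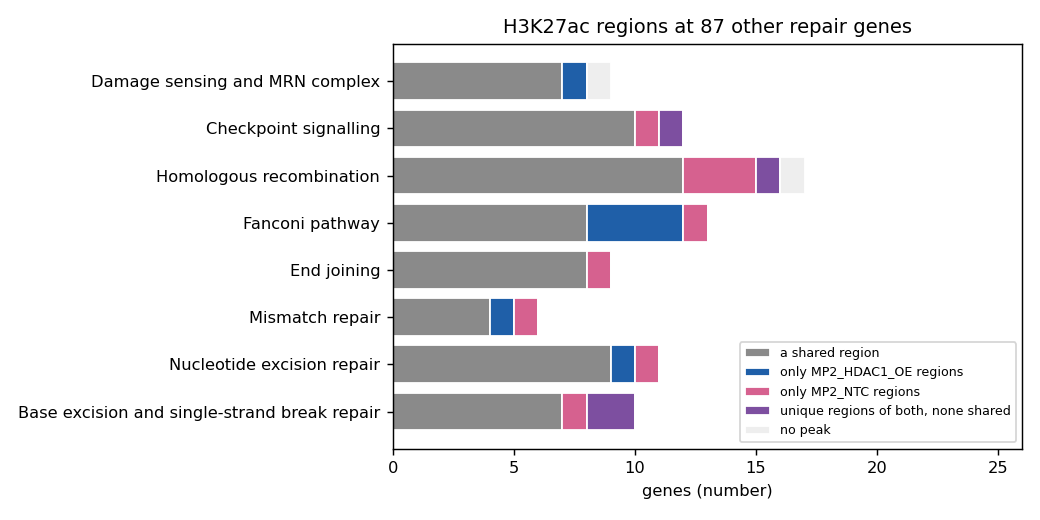
Number of genes (horizontal axis) in 8 groups of other repair genes by the H3K27ac regions in the gene and 10 kb on either side. Grey marks genes with a shared region, blue and pink those with regions of MP2_HDAC1_OE or MP2_NTC alone, purple those with unique regions of both lines and none shared, and pale grey those with no peak; grey is the longest part in each group, and blue is longest in the Fanconi group (4 genes).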

How the data were processed

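The deposited data were 1 H3K27ac peak list per line, which the authors made with the ENCODE pipeline from 2 samples (reads aligned to hg38; the submitters' processing notes name BWA 0.7.12, Picard 1.88 and SAMtools) as the peaks that passed an irreproducible discovery rate threshold. The peak caller is not given in the sources used here. The deposited columns used were the interval, the signal (column 7, scaling between lists unknown), the score and the summit. The −log10 q-value column of the deposited lists was read but not compared, and the p-value column held one placeholder throughout. Control samples have no peaks of their own here. Columns of other samples numbered 0.

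Peaks sharing at least 1 bp were merged into regions, each ranked by its strongest peak. Among peaks of the same kind of width, a region took the highest such rank of its peaks. Gene positions and promoters came from RefSeq (GRCh38.p14). Named genes were the 9 genes, *HDAC1*, genes with an end at a region, and, of the other repair genes, up to 3 per line of highest rank with regions of that line alone; *TP53BP1* and *BLM* were named after their values were seen. One region in the *H2AX* window enters the counts and is not otherwise reported here. The genes and lists were chosen with earlier results of these data known. Intervals are 95% Wilson intervals (scipy 1.17.1). Merging was checked on simulated peaks. Alternatives were another overlap, window, merging gap, peak filter and ranking. Python 3.11.15, pandas 2.3.3, numpy 2.4.6 and matplotlib 3.10.9 were used.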

Additional observations from a re-analysis of the deposited data

How the results depend on the processing

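Each list pools both samples of a line, so no replicate could be left out. No paired analysis was possible because each line has 1 pooled list. Of 59 alternative values of 8 results, 49 kept their direction and stayed within 1.5 times the reported count or median, or within the Wilson interval of the reported share, which for small counts allows a change such as 3 genes to 2. Requiring 50% of both peaks to overlap lowered the genes with a shared region from 7 to 5 and raised the genes with a region unique to MP2_NTC from 1 to 6, those unique to MP2_HDAC1_OE from 3 to 7, the median rank difference from 7.27 points over 7 genes to 21.6 over the 5 left and the share of MP2_NTC regions near the chromosome 11 genes from 18.6% to 30.3%. The genes with a region unique to MP2_NTC numbered 2 with the strongest 75% of peaks, 3 with 25 kb on either side, and 0 with 2 kb, with the start window and with merging across 500 bp. The median rank difference was −0.92 among peaks of the same kind of width, an alternative chosen after seeing the data. It was 21.6 with the 50% overlap, as given above, and 5.79 to 9.69 under the remaining alternatives. Depth is unknown, which limits what an absent peak shows.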
